A study of Oncorhynchus mykiss with 12 samples.

Results

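The miRNA pool of the liver was described in fasted rainbow trout (Oncorhynchus mykiss), without a comparison between feeding states. The 4 libraries labelled as fasted, numbered 7, 8, 10 and 13, were taken from a series of 12. Each came from the liver of an adult wild-type trout (strain given as Walbaum) after a 4-day fast, and the libraries of trout fed again, on a diet without or high in carbohydrate, were not used here. The labels number each library separately and do not state that each number is a different animal. They are written as fish below, and the SD measures the spread between these samples. Sex, weight and batch are not given. Whole liver was used, so hepatocytes, blood, vessel and connective tissue cells were sequenced together.

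A miRNA is cut from a hairpin precursor whose stems give a 5p and a 3p product. Usually the product of one arm is kept in an Argonaute protein and the other is degraded, so that the ratio of arms differs widely between miRNAs. Targets are recognised mainly through the seed, bases 2 to 8 from the 5′ end, so that sequences with the same seed form a group with overlapping targets, and a shift of the 5′ end changes the seed while a change at the 3′ end does not. In vertebrate liver, miR-122 is known as the dominant miRNA of hepatocytes, where it acts on lipid and cholesterol metabolism.

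The 15 most abundant sequences are shown because they carried most of the counts. They are written 5′ to 3′ with T for U as in the deposited table, and the seed is in capitals. The prefix of a name gives the fish species whose miRNA it was matched to (dre for zebrafish, ssa for Atlantic salmon, fru for fugu, ipu for channel catfish, ccr for common carp), and the marks L and R give bases added (+) or missing (-) at the 5′ and 3′ end against that species' miRNA.
dre-miR-122_R-1: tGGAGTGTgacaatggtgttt
dre-miR-100-5p: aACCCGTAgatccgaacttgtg
dre-miR-30e-5p_R+2: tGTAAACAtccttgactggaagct
dre-miR-199-5p: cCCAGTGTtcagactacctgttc
ssa-miR-146a-5p: tGAGAACTgaattccatagatgg
dre-let-7a: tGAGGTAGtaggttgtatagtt
dre-miR-148_R-1: tCAGTGCAttacagaactttg
fru-miR-21: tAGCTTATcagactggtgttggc
ssa-miR-30b-5p_R-4: tGTAAACAtccccgactgga
ssa-miR-26a-5p: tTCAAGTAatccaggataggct
ipu-miR-192: aTGACCTAtgaattgacagcc
dre-miR-22a-3p: aAGCTGCCagctgaagaactgt
dre-miR-181a-5p: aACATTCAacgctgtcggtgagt
ccr-miR-143: tGAGATGAagcactgtagct
fru-miR-125b_R-1: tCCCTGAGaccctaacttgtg

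The depth differed between the fish. Counts assigned to listed sequences were 1.54 M in fish 7, 0.694 M in fish 8, 0.818 M in fish 10 and 2.49 M in fish 13, which were 43.1% to 45.8% of the mappable reads of each library. The 3′ adapter was found in 66.6% of the raw reads of fish 7, 24.7% of fish 8, 32.5% of fish 10 and 81.4% of fish 13, and the order of depth was that of this share, not that of the 6.37 M to 7.95 M raw reads. A count above 0 was given to 957 listed sequences in fish 7, 786 in fish 8, 800 in fish 10 and 1123 in fish 13. Drawn down to 694047 counts, the rounded counts of the shallowest library, the expected numbers were 689, 717, 683 and 719 in the same order. Fish 8 was that library, so its change from 786 to 717 came only from rounding small split counts to 0, which also lowers the other numbers. A count of 0 allows up to 1.21 counts in each 1000000 (CPM) in fish 13 and up to 4.32 CPM in fish 8 (3 counts of the library total, counting error only). Counts of different sequences were not calibrated against known amounts, so all shares below are shares of counts and not of molecules.

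Of the 1696 listed sequences, 1368 had a count above 0 in at least 1 fasted fish, and 554 had one in all 4. The 554 held 99.96 ± 0.00562% of counts (SD, n = 4), and the 370 sequences seen in 1 fish only held 0.00786 ± 0.00203%. Known miRNA names (772 of the 1368 sequences, in 135 families) held 99.8 ± 0.0159% of counts. The other 596 were the authors' predicted candidates and held 0.214 ± 0.0159%. Names taken from zebrafish held 72.3 ± 1.32% of counts and names from Atlantic salmon, the nearest relative among the 9 reference species, 14.4 ± 1.54%. A name therefore says which species' entry was matched, not that a trout locus was identified.

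A few sequences filled the pool. The miR-122 sequence took 27.0% of counts in fish 7, 27.6% in fish 8, 26.6% in fish 10 and 28.6% in fish 13, or 27.5 ± 0.904% (SD, n = 4). Next was miR-100-5p, with 22.08%, 18.85%, 22.02% and 21.06% in the same fish. These sequences stood in the same order, ahead of all others, in all 4 fish, and together held 48.5 ± 1.40% of counts. The 10 most abundant sequences held 73.7 ± 0.940%, the 50 most abundant 95.5 ± 0.265%. Ranked within each fish, 28 sequences in fish 7, 31 in fish 8, 29 in fish 10 and 27 in fish 13 made up 90% of counts, and 112 to 118 made up 99%. At the other end, 747 of the 1368 sequences had a mean under 1 CPM.

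**Figure D1:**
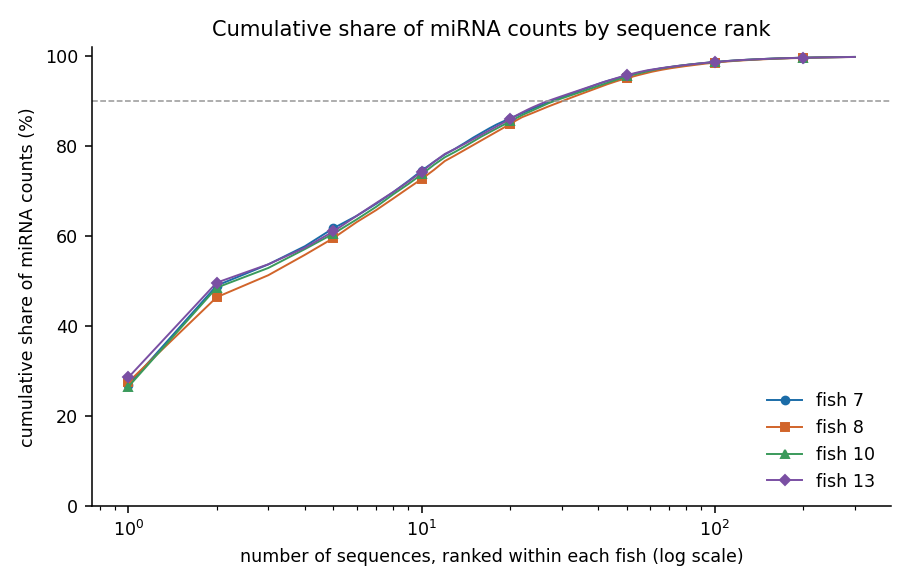
Cumulative share of miRNA counts (%, vertical axis) against the number of sequences ranked within each fish (horizontal axis, log scale), 1 line per fasted fish; the dashed line marks 90%. The 4 lines nearly coincide and cross 90% at 27 to 31 sequences.

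By family, with all species prefixes and letters of a number merged, miR-122 held 27.7 ± 0.884% of counts and miR-100 21.98 ± 1.55%. Behind them came miR-30 (7.51 ± 0.813%) and let-7 (5.65 ± 0.774%), a regulator of growth and differentiation found throughout animals. miR-199, known from connective tissue cells, held 4.40 ± 0.299%, and miR-146, which dampens signalling of Toll-like receptors in mammals, 4.17 ± 1.04%. miR-148, a hepatocyte miRNA that in mammals targets the LDL receptor, held 3.18 ± 0.670%, and miR-21 held 2.92 ± 0.650%. The next were miR-26 (2.56 ± 0.236%), miR-192 (2.24 ± 0.226%), miR-22 (2.02 ± 0.177%), miR-181 (1.55 ± 0.0945%), miR-27 (1.38 ± 0.260%), miR-125 (1.24 ± 0.0968%) and miR-143 (1.18 ± 0.0536%; SD, n = 4 throughout). The 10 largest families together held 82.4 ± 0.852% and the 15 largest 89.7 ± 0.464%. The same 10 families were the 10 largest in all 4 fish.

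**Figure D2:**
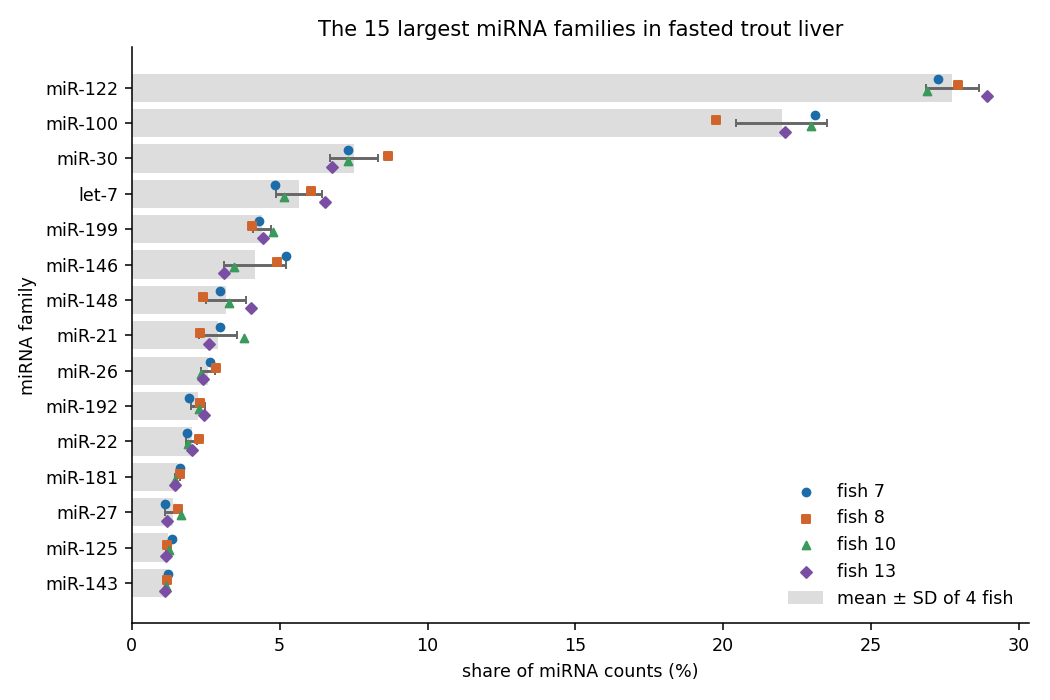
Share of miRNA counts (%, horizontal axis) of the 15 largest families, with grey bars and lines for the mean ± SD of 4 fasted fish and 1 symbol per fish. miR-122 lies between 26.9% and 28.9% and miR-100 between 19.8% and 23.1%, and no other family exceeds 8.68% in any fish.

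The order below the first 3 families was not the same in each fish. miR-122, miR-100 and miR-30 held the first places in all 4. The ratio of the miR-122 to the miR-100 family was 1.18 in fish 7, 1.41 in fish 8, 1.17 in fish 10 and 1.31 in fish 13. let-7 held 4.86%, 6.06%, 5.16% and 6.52% in the same fish, and miR-146 held 5.22%, 4.90%, 3.44% and 3.12%. miR-146 was thus above let-7 in fish 7 and below it in the other fish. miR-199, with 4.29%, 4.08%, 4.79% and 4.45%, lay below miR-146 in fish 7 and 8 and above it in fish 10 and 13. miR-148 held 2.98%, 2.42%, 3.28% and 4.03%, and miR-21 held 2.97%, 2.30%, 3.80% and 2.60%. The range of miR-146 overlapped those of let-7, miR-199, miR-148 and miR-21, and those of miR-148 and miR-21 overlapped each other. The range of miR-199 lay below that of let-7 and above those of miR-148 and miR-21. miR-192 and miR-22, the tenth and eleventh, had ranges of 1.92% to 2.44% and 1.88% to 2.27% that overlap, and miR-22 held less than miR-192 in all 4 fish.

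Most large families rested on a leading sequence. The leading sequence held 98.9 ± 0.112% of the miR-122 family, 99.6 ± 0.0590% of miR-192, 98.97 ± 0.0460% of miR-143 and 95.6 ± 0.255% of miR-100 (SD, n = 4). It held 91.7 ± 1.06% of miR-199, 91.7 ± 0.989% of miR-146, 90.8 ± 1.29% of miR-26 and 89.1 ± 1.68% of miR-21. The exceptions among the 15 largest were miR-30, let-7 and miR-27, in which it held 55.7 ± 1.80%, 56.29 ± 2.001% and 55.7 ± 4.19%.

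In let-7, 54 sequences were seen, while 24 sequences carried the seed GAGGTAG. The leading 5p members were distinguished by a few bases outside this seed. By name, let-7a made up 57.0 ± 1.97% of the family, let-7e 14.4 ± 0.756%, let-7j 12.6 ± 0.711%, let-7g 8.48 ± 0.903%, and let-7h, let-7b, let-7i, let-7c, let-7d and let-7f from 2.66% down to 0.0520%. The following 4 sequences are shown for comparison, all 22 nt long and with the same seed.
dre-let-7a: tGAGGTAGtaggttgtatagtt
fru-let-7e: tGAGGTAGtagattgaatagtt
hhi-let-7j: tGAGGTAGttgtttgtacagtt
dre-let-7g: tGAGGTAGtagtttgtatagtt
Counted from 1 at the 5′ end, with the base of let-7a first, let-7e differed at G12A and T16A, let-7j (named from Atlantic halibut) at A10T, G12T and T18C, and let-7g at G12T. Reads shared between sequences were divided by the authors, so the split within let-7 is less certain than the total.

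In miR-30, the 24-nt dre-miR-30e-5p_R+2 held 55.7 ± 1.80% of the family and the 20-nt ssa-miR-30b-5p_R-4 held 31.3 ± 1.21%. Over their first 20 bases they differed at T12C and T13C, with the base of the 24-nt sequence first. The 3′ ends of these members of the same seed group thus lay 4 bases apart. In miR-27, known in mammals for its targets in lipid metabolism, dre-miR-27d_R-1_2ss11CT20TG held 55.7 ± 4.19% and dre-miR-27b-3p_R-1 held 33.9 ± 4.87%, and they differed at T11C, with the base of the miR-27d sequence first. The miR-27b sequence made up 40.6% of the family in fish 7 and 28.9% to 33.4% in the others.

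By seed, whatever the name, the largest group was GGAGTGT with 27.5 ± 0.903% of counts, and 99.98 ± 0.00692% of it was miR-122. The group ACCCGTA held 22.5 ± 1.65%. It joined miR-100, with 97.7 ± 0.456% of the group, and miR-99, with 2.27 ± 0.456%. The leading sequences of miR-100 and miR-99 differed at A16T over their first 21 bases, and the listed dre-miR-100-5p_R+1_1ss16AT, named as a miR-100 with a base difference, matched dre-miR-99_R-1 over all its 21 bases. Then came GTAAACA (7.23 ± 0.784%, all miR-30), GAGGTAG (5.58 ± 0.777%, all let-7) and GAGAACT (4.12 ± 1.03%, miR-146 for 99.99 ± 0.00509%). Another seed, CAGTGCA, was shared by miR-148 and miR-152. That group held 3.95 ± 0.633%, of which miR-148 made up 73.0 ± 5.15% and miR-152 27.0 ± 5.15%, and their leading sequences differed at T10A over 21 bases.

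The labelled tissue was checked against marker families. The 6 hepatocyte families (miR-122, miR-192, miR-194, miR-148, miR-101 and miR-22) held 34.6% of counts in fish 7, 35.7% in fish 8, 35.0% in fish 10 and 37.9% in fish 13, all 6 being present in each. Only miR-122 was set as the defining member of this list, so the whole share is not a measure of hepatocytes. Besides miR-122, the most abundant of the 6 was miR-148. miR-194 held 0.184 ± 0.0307% and miR-101 0.447 ± 0.0826% (SD, n = 4). Each list of families that mark other cells had counts in every fish. In bulk tissue, fewer cells of a type and less RNA per cell cannot be told apart.

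The fibroblast and smooth muscle list held 6.19 ± 0.318% of counts, most of it miR-199 and miR-143, and its defining miR-145 held 0.596 ± 0.113%. The leukocyte list held 4.46 ± 1.09%, of which nearly all was miR-146, while the defining miR-142 and miR-223 held 0.272 ± 0.0673% and 0.0058 ± 0.00104%. The endothelial miR-126 held 0.961 ± 0.0864%. The erythrocyte pair miR-451 and miR-144, known from red blood cell development, held 0.325 ± 0.150%, and the list of epithelium and bile duct 0.260 ± 0.0444%, nearly all from miR-200. The fish interferon-linked pair miR-462 and miR-731 held 0.645 ± 0.0886%. Lists of tissues outside the liver were low: pancreas 0.0237 ± 0.00946%, muscle 0.0109 ± 0.00555% and neural 0.00221 ± 0.00170%. Most of the muscle share was miR-499 (0.00844 ± 0.00572%). It had 48.8 CPM in fish 7, 40.3 in fish 8, 83.1 in fish 10 and 166 in fish 13, from 75, 28, 68 and 412 counts. The defining miR-1 and miR-133 held 0.0019 ± 0.00146% and 0.000524 ± 0.000234%. miR-206 of muscle had a count of 0 in all 4 fish, and every other family on the lists had a count in at least 1 fish.

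The erythrocyte list had a coefficient of variation (CV) between fish of 46.2%, beside 24.4% for the leukocyte list and 4.11% for the hepatocyte list. The neural, muscle and pancreas lists, with far fewer counts, had CVs of 77.2%, 51.1% and 39.9%, and the remaining lists 5.13% to 17.1%. Most hepatocyte list counts were miR-122, with a CV of 3.19%. The CVs of miR-148, miR-101, miR-194, miR-192 and miR-22 were 21.1%, 18.5%, 16.7%, 10.1% and 8.76%. miR-451 stood at 2014 CPM in fish 7, 1656 CPM in fish 8, 2840 CPM in fish 10 and 800 CPM in fish 13, and miR-144 at 1454, 1137, 2340 and 778 CPM. Both families were highest in fish 10 and lowest in fish 13, a 3.55-fold and a 3.01-fold range. miR-142, a marker of blood cells, was also lowest in fish 13, with 1720 CPM against 2929 to 3125 CPM in the others. miR-126 of the endothelium did not follow this order, with 10182, 10129, 8341 and 9784 CPM. The part of blood content in other values was not tested.

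The pancreas list was highest in fish 7. miR-375 had 173 CPM in fish 7, against 70.6 in fish 8, 63.6 in fish 10 and 80.4 in fish 13. miR-216 had 170 counts in fish 7 and 7, 3 and 16 in the others, or 110.5, 10.1, 3.67 and 6.43 CPM. miR-217 had 25 counts in fish 7 and 0, 1 and 1 in the others, or 16.2, 0, 1.22 and 0.402 CPM. These families are known from the exocrine and endocrine pancreas, which in trout lies scattered around the gut. The fourth family of the list, miR-7, was lowest in fish 7, with 76.5 CPM there and 130, 97.2 and 109 CPM in fish 8, 10 and 13. The whole list made up at most 0.0376% of the counts of a fish. Chosen after its values were seen, ssa-miR-8159-5p_R-2 was also highest in fish 7, with 195 counts there and 3, 6 and 22 in fish 8, 10 and 13. At the depth of each library these were 127, 4.32, 7.33 and 8.84 CPM.

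Counts came mostly from 5p arms. An arm was taken from the name, or from a sequence of the same family with the same seed whose name gives it. Such sequences on the 5p arm held 84.5 ± 0.418% of all counts and those on the 3p arm 8.03 ± 0.541%, while 7.44 ± 0.376% had no determined arm. Of the counts with an arm, 91.3 ± 0.561% were 5p. The sequences without an arm were led by miR-148, miR-143 and miR-152. Under a wider rule, chosen after seeing the data, an arm was also taken from an overlap of at least 15 bases with an arm-named sequence of the family, and otherwise set across from the arm that held at least 95% of the family's arm-named counts. This rule left 0.0376 ± 0.00359% without an arm and put 85.2 ± 0.445% on 5p. Without the miR-122 and miR-100 families it put 71.1 ± 0.931% on 5p.

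Under the wider rule, 79 families had both arms with at least 100 counts in all. The 5p arm was the larger in all 4 fish in 45 of them and the 3p arm in 33, so that 78 of the 79 had the same leading arm in every fish. The median of the log2 ratio of 5p to 3p counts (0.5 added to each) was 2.18 ± 0.175 over these families. The arms differed more than 10-fold in 51 families and more than 100-fold in 16, and by less than 2-fold in 3. The spread of a ratio between fish was small against this range, with a median SD of 0.36 on the log2 scale. The wider rule itself gave some families their second arm, since 62 had both arms by the first rule. Of these, 58 had at most 5% of counts on no determined arm. In 37 of the 58 the 5p arm was the larger in all 4 fish and in 20 the 3p arm, and in 35 the arms differed more than 10-fold. The leading arm of miR-459, miR-722 and miR-101 depended on the rule.

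**Figure D3:**
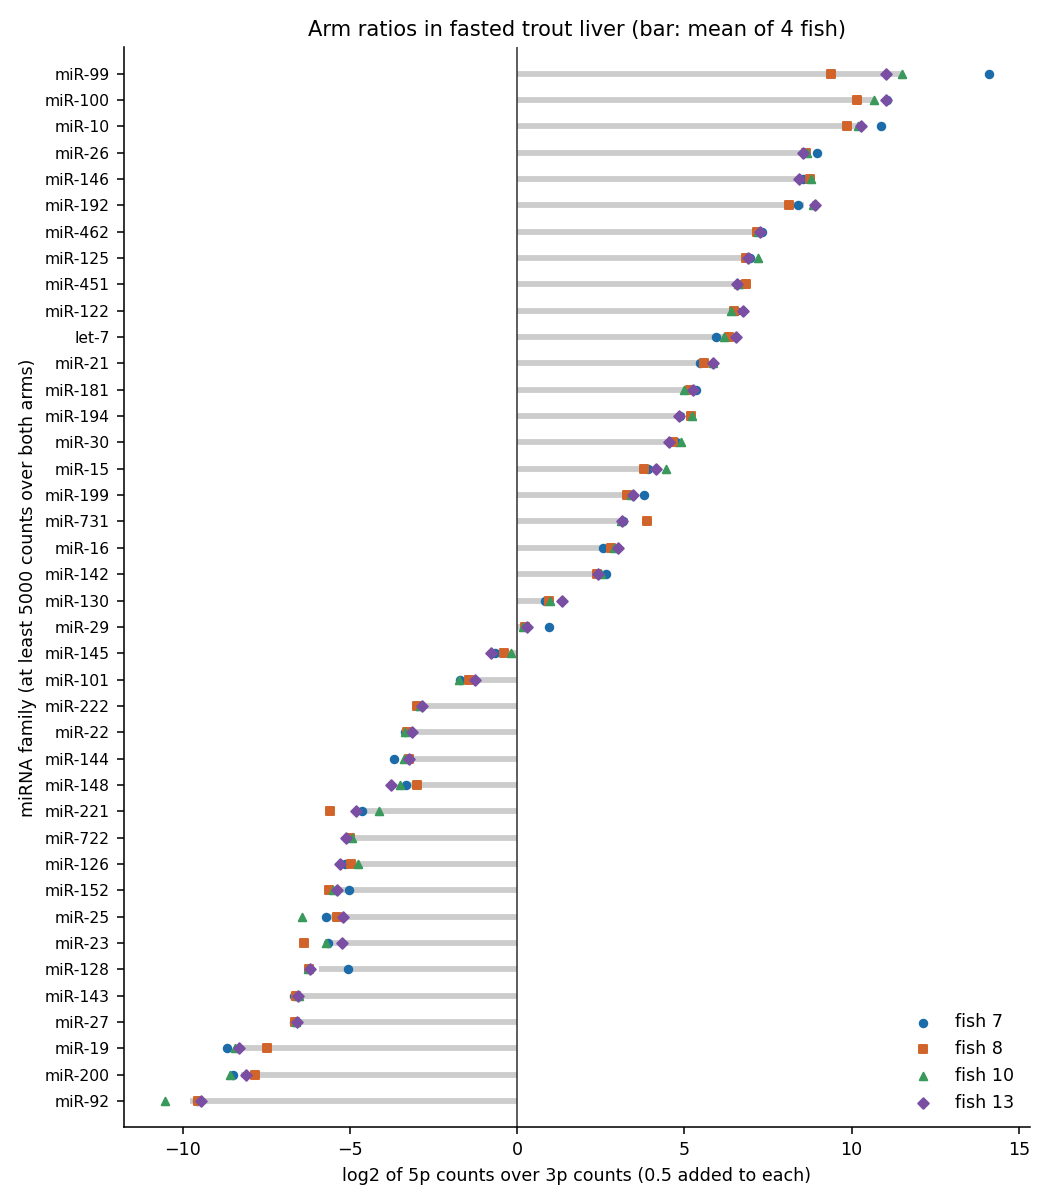
log2 of 5p over 3p counts (0.5 added to each, horizontal axis) for the 40 families with at least 5000 counts over both arms, arms by the wider rule, with 1 symbol per fasted fish and a bar for the mean. In 22 families the mean lies on the 5p side and in 18 on the 3p side, from 11.50 for miR-99 to -9.78 for miR-92.

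The named ratios below were restricted, after seeing the data, to families with at most 5% of counts on no determined arm. The 5 most biased to 5p were miR-99 (mean log2 ratio 11.50 ± 1.95), miR-100 (10.74 ± 0.41), miR-10 (10.30 ± 0.42), miR-26 (8.71 ± 0.19) and miR-146 (8.62 ± 0.18; SD, n = 4). The ratio of miR-99 rested on 11 counts of the 3p arm over the 4 fish, with 0 in fish 7, so its size depends on the added 0.5. That of miR-10 rested on 19 counts of the 3p arm. The 3p arm of miR-100 had 165, 117, 114.5 and 260 counts in fish 7, 8, 10 and 13, beside 355328, 136995, 187691 and 549282 on the 5p arm.

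The 5 most biased to 3p were miR-92 (-9.78 ± 0.51), miR-458 (-8.31 ± 0.41), miR-200 (-8.25 ± 0.34), miR-19 (-8.22 ± 0.52) and miR-27 (-6.63 ± 0.04). Members of the miR-92 and miR-19 families are products of the miR-17-92 cluster, whose miR-17 was on the other side with 2.87 ± 0.29. Families merge all letters of a number and names do not separate loci, so these ratios are not those of the cluster alone. The 5p arm of miR-92 had 44 counts over the 4 fish, that of miR-200 had 47.5, that of miR-19 had 26 and that of miR-458 had 2.

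The 5 nearest to equal arms were miR-210, a miRNA induced by low oxygen in mammals, with 0.03 ± 0.36, miR-29 (0.41 ± 0.37), miR-301 (-1.01 ± 0.49), miR-130 (1.02 ± 0.23) and miR-338 (-1.13 ± 0.37). The 5p arm made up 50.4% of miR-210 counts in fish 7, 44.4% in fish 8, 59.2% in fish 10 and 48.3% in fish 13. This was the family whose leading arm differed between fish. In miR-29 the 5p arm made up 66.1%, 53.9%, 52.9% and 54.9% of counts, the highest share being in fish 7. The near-equal totals of the arms set both families apart from the bias of most families. The single leading sequences of miR-29 were less equal, with means of 945 CPM on 5p and 571 CPM on 3p. The leading sequences of the arms of both families are shown here.
dre-miR-210-5p_1ss16CT: aGCCACTGactaacgtacattg
dre-miR-210-3p_R-2: cTGTGCGTgtgacagcggct
ssa-miR-29b-2-5p_L-2: aCTGATTTcctctggtgtttaga
dre-miR-29b: tAGCACCAtttgaaatcagtgt

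Among the 15 largest families, the 5p arm made up 98.9 ± 0.111% of miR-122, 98.7 ± 0.226% of let-7, 99.2 ± 0.0844% of miR-125, 98.1 ± 0.272% of miR-21, 99.7 ± 0.0691% of miR-192, 97.3 ± 0.285% of miR-181 and 96.3 ± 0.380% of miR-30. miR-199 kept 91.8 ± 1.07% on 5p and so a visible 3p arm, with 4434, 2618, 3365 and 9118 counts in fish 7, 8, 10 and 13. In miR-22 the 3p arm was the larger, and the 5p arm made up 8.89%, 9.25%, 8.93% and 10.2% of counts. By the wider rule, the 5p arm made up 8.80 ± 1.83% of miR-148, 1.03 ± 0.0460% of miR-143, 2.35 ± 0.430% of miR-152, 25.8 ± 3.09% of miR-101 and 41.3 ± 4.62% of miR-145. Without it, the leading sequences of miR-148, miR-143, miR-152 and miR-101 had no arm, nor had the second sequence of miR-145, ola-miR-145_L+1R+4. The arms of miR-122, miR-22, miR-148 and miR-199 that held fewer counts were led by the following sequences.
ssa-miR-122-2-3p_1ss10AT: aACGCCATtttcacactaaata
dre-miR-22a-5p_R-1: aGTTCTTCactggcaagcttt
ssa-miR-148a-5p: aAGTTCTGtgatacacttcgact
dre-miR-199-3p_L-1: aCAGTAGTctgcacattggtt

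The arms of miR-148 varied unequally between fish. The leading 3p sequence, dre-miR-148_R-1, held 2.578%, 2.003%, 2.823% and 3.451% of counts in fish 7, 8, 10 and 13. The 5p sequence ssa-miR-148a-5p had 2712, 2703, 2673 and 2746 CPM in the same fish, a CV of 1.11%, below the 1.85% that counting error alone gives. The log2 ratio of the arms of miR-148 therefore lay at -3.32, -2.99, -3.49 and -3.77. Names do not separate loci, so it cannot be told whether both arms come from the same precursors.

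Lengths and ends below are those of the listed sequences. The table holds 1 line per sequence, and for miR-122 no line for a form 1 base longer or shorter than the 21-nt sequence, so whether reads of other lengths were added to a line or left out cannot be told from the table. The mean length weighted by counts was 21.80 nt in fish 7, 21.79 nt in fish 8 and 10 and 21.74 nt in fish 13 (21.78 ± 0.0259 nt). Sequences of 22 nt held 38.3 ± 0.494% of counts and those of 21 nt 37.8 ± 1.36%. Sequences of 23 nt held 15.5 ± 0.999%, those of 24 nt 4.23 ± 0.532% and those of 20 nt 4.05 ± 0.332%. The remaining lengths, 15 to 19 nt and over 24 nt, held 0.108 ± 0.00374% and 0.0581 ± 0.00345%.

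**Figure D4:**
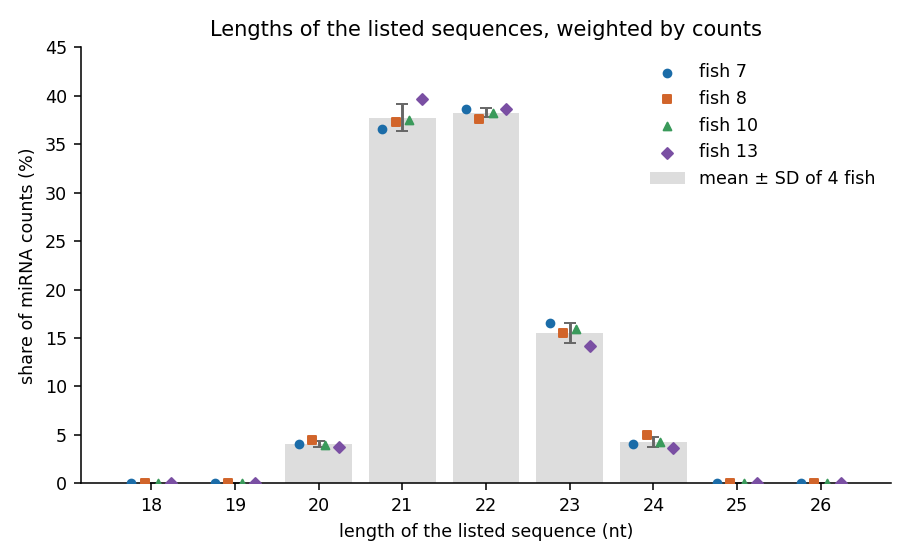
Share of miRNA counts (%, vertical axis) by length of the listed sequence (nt, horizontal axis), with grey bars and lines for the mean ± SD of 4 fasted fish and 1 symbol per fish. Lengths of 21 and 22 nt hold 36.5% to 39.7% each in every fish, and lengths of 23 nt 14.2% to 16.5%.

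How much of a length its leading sequence held differed widely between lengths. dre-miR-122_R-1 held 72.7 ± 1.52% of the 21-nt counts and dre-miR-100-5p 54.9 ± 3.40% of the 22-nt counts. dre-miR-199-5p held 26.1 ± 2.46% of the 23-nt counts and dre-miR-30e-5p_R+2 98.9 ± 0.0795% of the 24-nt counts. The 20-nt class was led by ssa-miR-30b-5p_R-4 with 57.9 ± 2.31%. Of the short lengths, 19 nt was led by dre-miR-451_R-3_1ss1AT (60.4 ± 14.4%), 18 nt by the candidate PC-5p-219_12291 (67.7 ± 5.36%), 17 nt by ssa-mir-29a-p3_1ss10CT (37.5 ± 17.5%) and 16 nt by ipu-miR-7550_L-1R-1 (94.5 ± 4.05%). The leaders of the long lengths were ola-miR-92a_R+4 at 25 nt (40.9 ± 3.69%) and pol-miR-221-5p_R+4_1ss5GA at 26 nt (65.1 ± 5.52%). Without the miR-122 family the mean length was 22.1 ± 0.0256 nt. By the wider rule for arms, 5p sequences averaged 21.8 ± 0.0275 nt and 3p sequences 21.5 ± 0.0414 nt, and the 3p mean was the lower in all 4 fish.

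Of the counts of known sequences, 51.9 ± 0.942% belonged to names without any mark. A changed 3′ end was marked for 45.8 ± 0.901% of counts, in 347 of 772 sequences. A changed 5′ end was marked for 3.16 ± 0.142%, in 142 sequences, and a base difference for 2.01 ± 0.235%, in 281 sequences. Shorter 3′ ends (38.4 ± 0.932%) took more counts than longer ones (7.45 ± 0.525%). The missing of 1 base at the 3′ end was the most common mark, with 35.4 ± 1.03% of counts, of which the miR-122 sequence held most. Without dre-miR-122_R-1 the share with a changed 3′ end was 25.3 ± 0.594%.

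Among the 15 most abundant sequences the largest 3′ change was in ssa-miR-30b-5p_R-4, which lacked 4 bases of the salmon miRNA. dre-miR-30e-5p_R+2 had 2 bases more than the zebrafish miRNA. The 5′ marks were led by ccr-miR-126-3p_L-1R+1 (0.806 ± 0.0853% of known counts), dre-miR-722_L-2 (0.788 ± 0.122%), ssa-miR-145-3p_L+2R-1 (0.349 ± 0.0750%) and dre-miR-199-3p_L-1 (0.348 ± 0.0514%). A mark depends on the species matched. ccr-miR-126-3p_L-1R+1 starts at the same base as fru-miR-126, which carries no mark, so its L-1 is a difference between reference entries and not a shifted end among the trout sequences.

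Ends were therefore also compared within the table, by exact overlaps of at least 15 bases between a sequence and a more abundant one. Of the 1368 sequences seen, 265 overlapped a more abundant one, and they held 2.03 ± 0.0496% of counts. With the same start, 133 had a longer 3′ end (1.22 ± 0.0649% of counts) and 24 a shorter one (0.728 ± 0.111%). The start differed in 108, which held 0.0889 ± 0.0145%. Among these listed sequences, 3′ variants thus held more counts than 5′ variants in all 4 fish. The table may not hold all end variants, so these are shares of listed forms.

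The pairs that carried most of these counts are shown, each sequence below the more abundant one it overlaps. The last pair holds the 5′ variant with the most counts. Not shown is the 20-nt ssa-miR-27d-3p, which matched dre-miR-27d_R-1_2ss11CT20TG over all its bases. Its mean was 999.5 CPM, above the 361 CPM of the 5′ variant.
dre-miR-100-5p: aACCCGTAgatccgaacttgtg
ssa-miR-100a-5p_R+1: aACCCGTAgatccgaacttgtgt
fru-miR-21: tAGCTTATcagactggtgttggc
ssa-miR-21a-5p_R-3: tAGCTTATcagactggtgttg
ssa-miR-26a-5p: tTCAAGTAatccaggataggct
ssa-miR-26b-5p_R-2: tTCAAGTAatccaggatagg
ssa-miR-92a-3p: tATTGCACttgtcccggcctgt
dre-miR-92a-3p_R+1: tATTGCACttgtcccggcctgtt
ccr-miR-126-3p_L-1R+1: tCGTACCGtgagtaataatgca
fru-miR-126: tCGTACCGtgagtaataatgc
ssa-miR-146d-5p: tGAGAACTgaattccaagggtt
dre-miR-146b_L+1_1ss23GT: tTGAGAACtgaattccaagggtt
The 23-nt form of miR-100 made up 4.25 ± 0.259% of its pair (SD, n = 4). The 21-nt form of miR-21 made up 7.64 ± 1.51% and the 20-nt form of miR-26 8.34 ± 1.32%. The pair of miR-92a was the most even of these, with 38.3 ± 2.78% in the 23-nt form, and the 21-nt form of miR-126 made up 13.9 ± 1.23%. The 5′ variant with the most counts was dre-miR-146b_L+1_1ss23GT, which starts 1 base before ssa-miR-146d-5p and made up 10.5 ± 1.37% of that pair. Its seed is TGAGAAC in place of GAGAACT. It held 603, 317, 266 and 259 CPM in fish 7, 8, 10 and 13, the order of the miR-146 family.

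Within the 10 largest families, the second sequence of the leading arm was in several cases such an end variant, as for miR-100, miR-21 and miR-26. That of miR-26 is named as miR-26b but matched the leading miR-26a sequence over all its 20 bases. From which member it came cannot be told. In miR-148 the second sequence was ola-miR-148_R+1, 6.01 ± 1.24% of the family, which differed from dre-miR-148_R-1 at G21A. In miR-146 it was ssa-miR-146d-5p with 7.16 ± 0.763%, which differed from the leading sequence at T17A, A18G, A20G and G22T over 22 bases. In let-7 and miR-30 it was another member, given above. In miR-122 it was ola-mir-122-p5_2ss12AG23TA with 0.0159 ± 0.00218% of the family and in miR-199 ola-miR-199a-5p_L-2R+4 with 0.0239 ± 0.00677%. In miR-192 it was dre-miR-192_L+1, which starts 1 base earlier and held 0.126 ± 0.0266%.

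By base, 63.0 ± 1.47% of counts had a T (U in the RNA) at the first position and 30.9 ± 1.19% an A. C made up 5.30 ± 0.276% and G 0.776 ± 0.111%. The A-starting counts were mostly miR-100. Without the miR-122 and miR-100 families, U started 70.8 ± 0.596% of counts and A 17.1 ± 0.401%. The last base was T in 53.2 ± 1.71% of counts, G in 30.4 ± 1.58%, C in 11.94 ± 0.9004% and A in 4.47 ± 0.289%. Much of this came from dre-miR-122_R-1, which ends in T and held 27.5% of counts, and dre-miR-100-5p, which ends in G and held 21.0%. The first base U is common in animal miRNAs, and a pocket of Argonaute is known to hold U and A in preference to C and G.

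The spread between the 4 fish was described by the CV of CPM for the 137 sequences with a mean of at least 100 CPM, which held 99.3 ± 0.0394% of counts. The median CV was 16.8%, beside a median of 3.84% that counting error alone gives, and 120 of the 137 sequences varied by less than 2-fold between the highest and the lowest fish. The CV was below 20% in 79 and above 50% in 2. It was lower for abundant sequences. The median was 20.4% in the 78 sequences of 100 to 1000 CPM, 15.4% in the 43 sequences of 1000 to 10000 CPM and 9.21% in the 16 sequences above that. In the last group the CV was a median of 15.8 times that of counting error. Other effects of library depth on the CV were not tested.

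**Figure D5:**
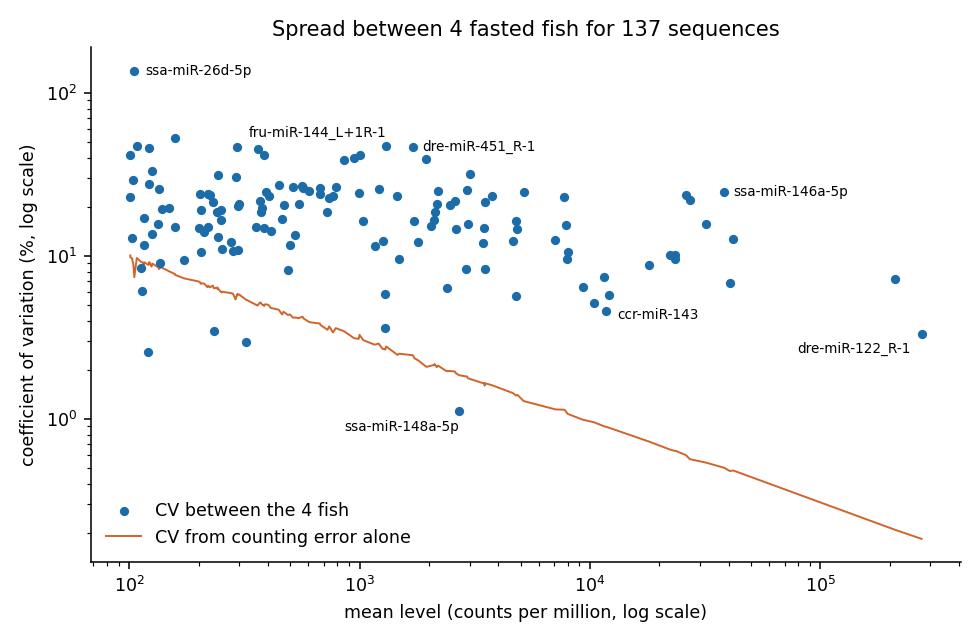
CV between the 4 fasted fish (%, vertical axis, log scale) against the mean level in CPM (horizontal axis, log scale) for 137 sequences, with the CV from counting error alone as a line. Most points lie above the line, the highest being ssa-miR-26d-5p at 136% and, among abundant ones, dre-miR-451_R-1 and fru-miR-144_L+1R-1 at 46.3% and 47.1%.

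Among the 59 sequences of at least 1000 CPM, the 6 with the largest CV were fru-miR-144_L+1R-1 (47.1%), dre-miR-451_R-1 (46.3%), ola-miR-148_R+1 (39.5%), ssa-miR-146d-5p (31.7%), dre-miR-23a-3p_R-1 (25.6%) and ssa-miR-222a-3p_R-1 (25.3%). The first 2 are the erythrocyte pair described above. ola-miR-148_R+1 had 1349, 1485, 1919 and 3044 CPM in fish 7, 8, 10 and 13, highest in fish 13 like dre-miR-148_R-1. The 6 with the smallest CV were ssa-miR-148a-5p (1.11%), dre-miR-122_R-1 (3.29%), fru-miR-126 (3.61%), ccr-miR-143 (4.58%), fru-miR-152 (5.13%) and dre-miR-10c-5p (5.68%). The shares of a library are bound to a fixed total, and the part of this in the small CV of the miR-122 sequence was not tested.

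The largest CV of the 137 sequences, 136%, belonged to ssa-miR-26d-5p, named here after its values were seen.
ssa-miR-26a-5p: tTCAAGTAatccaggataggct
ssa-miR-26d-5p: tTCAAGTAatctaggataggct
It differs from the leading miR-26 sequence at C12T. It stood at 29.9 CPM in fish 7, 36.5 in fish 8 and 33.9 in fish 10, and at 321 CPM in fish 13, a 10.7-fold range, while ssa-miR-26a-5p varied 1.223-fold. It made up 0.113% to 0.145% of the miR-26 family in fish 7, 8 and 10 and 1.33% in fish 13.

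Over the 137 sequences, the 6 pairs of fish had Pearson correlations of log2 CPM of 0.974 to 0.988 and Spearman correlations of 0.966 to 0.980. The sequences are not independent replicates, and the range of levels they share sets most of this value. Between 92.7% and 97.8% of the 137 sequences lay within 2-fold in a pair, and 4.29% (fish 7 and 10) to 7.47% (fish 8 and 10) of counts would have to change name to make the profiles of a pair equal. Among the 59 abundant sequences, fish 7, 8, 10 and 13 were the highest in 12, 21, 10 and 16 and the lowest in 22, 9, 13 and 15. CPM share a fixed total, and the part of the lower miR-100 share of fish 8 in these numbers was not tested.

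The 3 most abundant candidates were short or low. PC-5p-219_12291, 18 nt long, had 475, 438, 528 and 510 CPM in fish 7, 8, 10 and 13, and PC-5p-822_1981, also 18 nt, had 188, 245, 158 and 226 CPM. They made up 32.4 ± 2.08% of the candidate counts. PC-3p-1112_1333, 22 nt long, had 82.6, 96.5, 72.1 and 119 CPM. Of candidate counts 35.6 ± 2.55% lay at 15 to 19 nt, beside 0.0322 ± 0.00475% of the counts of known sequences. In all, 38 candidates had a mean of at least 10 CPM.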

How the data were processed

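Per the labels, liver RNA was taken with Trizol, made into libraries with a TruSeq RNA kit and read on a GAIIx. Bowtie 1.1.1 is named in the submitters' processing notes, with no role given. Which genome build and miRNA release were matched, and how, is not given in the sources used here. The authors deposited a table with a count of reads per library at each filtering step (inserts of 15 to 32 nt were kept, per the file headers) and a table with an estimated count per sequence and library. The authors split reads that match several sequences, and 69.1% to 74.4% of the values above 0 were whole. The deposited normalized signal, the same values over 1 constant per library, was not used for results. The tables held 0 sample columns outside the labels.

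Shares and CPM were computed from the estimated counts and the library total (Python 3.11.15, pandas 2.3.3, scipy 1.17.1); TMM factors came from edgeR 4.0.16. The spread and depth calculations were tested on simulated data. There is 1 group, so no comparison between groups was tested; Dixon's test was used to mark a fish far from the others. Means are given with the SD over 4 fish. Limits and CVs from counting cover counting error only: without molecular identifiers, PCR copies cannot be told from separate molecules. The members, lists and measures were chosen with earlier results of these data known. Named were the 15 most abundant sequences and families, the 5 largest seed groups, 5 families at each end and in the middle of the arm ratios and those of the 15 largest families, the 2 leading sequences of the leading arm of the 10 largest families, the leading sequence of each length from 16 to 26 nt, the 6 highest and 6 lowest CV at 1000 CPM or more, 3 candidates and the marker lists. An arm came from the name, or from an arm-named sequence of the family sharing bases 2 to 8; the wider arm rule and the limit of 5% without an arm were chosen after seeing the data. Alternatives left out each fish, the candidates, or sequences with a mean under 10 counts, pooled the fish, or changed 1 setting.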

Additional observations from a re-analysis of the deposited data

Results flagged for a closer look

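In 9 of 169 sets of 4 values a fish stood far from the others, by Dixon's test at the 95% level. Chance flags about 1 in 20 of independent, normally distributed sets, and these are 5.33%. Some sets repeat or contain the values of others, such as the largest family and the miR-122 family, and some rest on few counts. The shares are therefore only a rough comparison. Fish 7 was the fish concerned in 6 of the 9.

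Fish 7 was the highest in 3 families of the pancreas list. miR-375 stood at 173 CPM, against 63.6 to 80.4 CPM in the others, miR-216 at 110.5 CPM against 3.67 to 10.1 CPM, and miR-217 at 16.2 CPM against 0 to 1.22 CPM. The fourth family of that list, miR-7, was lowest in fish 7, with 76.5 CPM against 97.2 to 130 CPM. The part of pancreas tissue in other values of fish 7 was not tested. miR-194, on the hepatocyte list, was lowest in fish 7 with 1382 CPM, against 1938 to 2047 CPM. miR-142, on the leukocyte list, was lowest in fish 13 with 1720 CPM, against 2929 to 3125 CPM.

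The log2 ratio of 5p to 3p counts of miR-29 was 0.96 in fish 7, against 0.17 to 0.28 in the others. That of miR-128 was -5.05 in fish 7, against -6.24 to -6.20, and its 5p arm had 132 counts over the 4 fish. That of miR-731 was 3.88 in fish 8, against 3.10 to 3.17. That of miR-92 was -10.53 in fish 10, against -9.57 to -9.46, and rests on 44 counts of the 5p arm over the 4 fish.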

How the results depend on the processing

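The 17 summary values were recomputed under 126 alternatives, and 112 stayed within a limit. The limit was 1 SD between fish, or 1.5 times for the number of sequences that make up 90% of counts. For the median CV it was the SD of its values with each fish left out. In 68 of the 126, 1 fish was left out, which cannot move a mean of 4 fish by 1 SD. Leaving out the miR-122 sequence moved the 5p share to 87.7% (91.3% as reported), the mean length to 22.1 nt (21.8 nt), the share of 22-nt sequences to 52.7% (38.3%), the share with a changed 3′ end to 25.3% (45.8%) and the share starting with U to 49.1% (63.0%). The 5p share was 87.2% with arms from own names only and 85.2% under the wider rule. The median log2 ratio of the arms was 2.18 under the wider rule and 2.20 with 5 added to each arm, in place of 2.62. Known names held 99.83% of counts among sequences with a mean of at least 10 counts. The median CV was 16.01% with TMM factors and 14.5% from 1000 CPM.

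Leaving out 1 fish in turn gave median CVs of 16.2% (without fish 13 or 8) to 16.8%. Every other summary value stayed within its limit, but for a mean over 4 fish a limit of 1 SD could not be passed this way. No paired analysis was possible because a single group was described. Depth limits low levels most in fish 8, where 1 count is 1.44 CPM, and least in fish 13, where it is 0.402 CPM.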

Other observations

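Some listed sequences carried the same extra bases at the 5′ end, which was noticed after seeing the data. Of the 75 sequences that start before the more abundant sequence they overlap, 21 did so by at least 4 bases. In 14 of these 21 the added bases ended in GTGG, and in 5 of the 14 they were CGTGG. The 14 belonged to 14 different leading sequences from 11 families, candidates counted as a family, and held 31.2, 11.2, 11.5 and 65.6 counts in fish 7, 8, 10 and 13. They included forms of let-7a, miR-125b, miR-181a, miR-30, miR-92a and miR-19.

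The candidate PC-5p-3166_306 shares its first 16 bases, in capitals, with the miR-122 sequence and then has 3 other bases.
PC-5p-3166_306: TGGAGTGTGACAATGGaaa
It had 50, 44, 55 and 106 counts in fish 7, 8, 10 and 13, or 32.5, 63.4, 67.2 and 42.6 CPM, an order that the miR-122 sequence itself did not show. Another candidate, PC-5p-5196_150, 27 nt long, overlaps dre-miR-451_R-1 and runs 6 bases beyond its 3′ end. miR-451 is known for a maturation without Dicer in which the product is trimmed at its 3′ end.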
